A study of Danio rerio with 61 samples.

Results

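Hearts of the zebrafish strain TU (Tübingen) at 7 days post cryo-injury (dpci) were compared with hearts of 5 other wild-type strains at the same stage. The members are the 3 libraries titled TU at 7 dpci, out of 61 in the series, and the comparison group is the 15 libraries titled WIK, TL, SAT, KCL or AB at that stage, with 3 fish in each strain. All 18 fish were adult wild types with no transgene and underwent the same injury, in which the apex of the ventricle was touched with a chilled copper probe. SAT (Sanger AB Tübingen) was bred from AB and TU fish, so it shares ancestry with the strain tested. RNA of single ventricles was measured by 3′ mRNA sequencing, in which reads come from the 3′ end of a transcript and are counted per gene. The seventh strain, NA, was left out of the comparison group and is used only where the names of NA and TU libraries bear on each other.

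The zebrafish heart regenerates after a cryo-injury. Dead muscle is invaded by inflammatory cells, fibroblasts and epicardial cells lay down collagen, and cardiomyocytes at the border of the wound dedifferentiate, switch on genes such as nppa, divide and rebuild muscle. Wild-type zebrafish strains differ at many loci, among them the genes of the major histocompatibility complex (MHC), where whole blocks of genes differ between haplotypes.

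The TU libraries held 3602041 to 4377435 counts and the 15 others 3012597 to 4376237. A single mitochondrial rRNA gene took 57.7% to 64.2% of the counts in TU and 46.3% to 62% in the others. Outside the mitochondrial genome, 1228777 to 1278857 counts were left in TU and 999785 to 1536970 in the others. Levels are given as CPM, the count of a gene relative to the library total scaled by TMM, and the floor of 3 counts over the 3 TU fish was 0.297 CPM. Markers of cardiomyocytes, the main muscle cells of the ventricle, summed to 29643 CPM or more in each of the 18 hearts. TU fish 49 is titled 7 dpci and its time label says 1 day, and the same holds for SAT fish 38. The title was used, and the main counts are also given without these 2 fish.

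The strain names of several libraries also went against their RNA. For each library titled TU or NA, the log2 deviation of each gene from the mean of the 5 strains at the same stage was correlated with the mean deviation of the TU and of the NA fish at 7 dpci, over 5419 genes with a mean of at least 5 CPM. The 3 libraries titled uninjured NA had r of 0.57, 0.50 and 0.48 with TU at 7 dpci and 0.04, 0.03 and 0.11 with NA at 7 dpci. The 3 libraries titled uninjured TU had r of -0.09, -0.04 and -0.12 with TU and 0.50, 0.50 and 0.40 with NA. Of the 2 TU fish at 1 dpci, fish 54 had r of 0.58 with TU and 0.14 with NA, and fish 48 had -0.0034 with TU and 0.43 with NA. The 3 libraries titled NA at 1 dpci had r of -0.16, 0.0089 and 0.0099 with TU and 0.20, 0.42 and 0.61 with NA. The uninjured libraries of each name were thus nearer to the other strain at 7 dpci, and so was fish 48. Which of the titles are right, those of the 3 TU fish at 7 dpci included, was not tested. The 3 TU fish at 7 dpci were alike (r of 0.84 to 0.86 with their own mean, which contains them). These correlations are across genes, which are no replicates, and no library was regrouped by them.

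Of 16890 genes tested, 457 (2.71%) were past the threshold, a difference of more than 2-fold with an adjusted p below 0.05 by the quasi-likelihood test of edgeR with Benjamini-Hochberg adjustment. 325 genes (1.92%) were higher in TU and 132 (0.782%) were lower. The median log2 fold change over all genes was -0.02. In 105 of the 325 higher genes all 3 TU fish lay above all 15 others, and in 66 of the 132 lower genes all 3 lay below, against 1.14% and 0.634% of all genes. 160 of the 457 had a mean under 5 CPM in both groups, 20 were at 0 counts in all 3 TU fish and 11 were at 0 counts in all 15 others. With DESeq2 the split was nearer to even, with 250 higher and 204 lower. With 1 factor of unwanted variation (RUVg) added to the edgeR fit, 195 of the 457 calls were kept.

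Each TU fish moved these counts. Without fish 49, 220 genes were higher and 61 lower, without fish 51 193 and 49, and without fish 52 213 and 75. Between 215 and 242 of the 457 genes lost their call in these fits, and 2 to 8 changed sign. Without both fish whose time label differs from the title, 198 were higher and 58 lower, and 214 of the 454 genes that could be tested remained. Leaving out any 1 of the 15 others gave 301 to 343 higher and 110 to 134 lower genes. Where the call of 1 of the 67 genes named by rule depended on 1 fish, the gene is followed by parentheses. They give the fish whose removal ended the call and the highest adjusted p by edgeR. The range of the log2 fold change over the 18 fits with 1 fish left out comes last. The calls of other genes are not followed in this way, among them daxx, jund, klf2a, klf6a, ier2b, camk2a, sdhaf2, rhot1a, ugt5g1 and si:dkey-33c12.3.

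**Figure D1:**
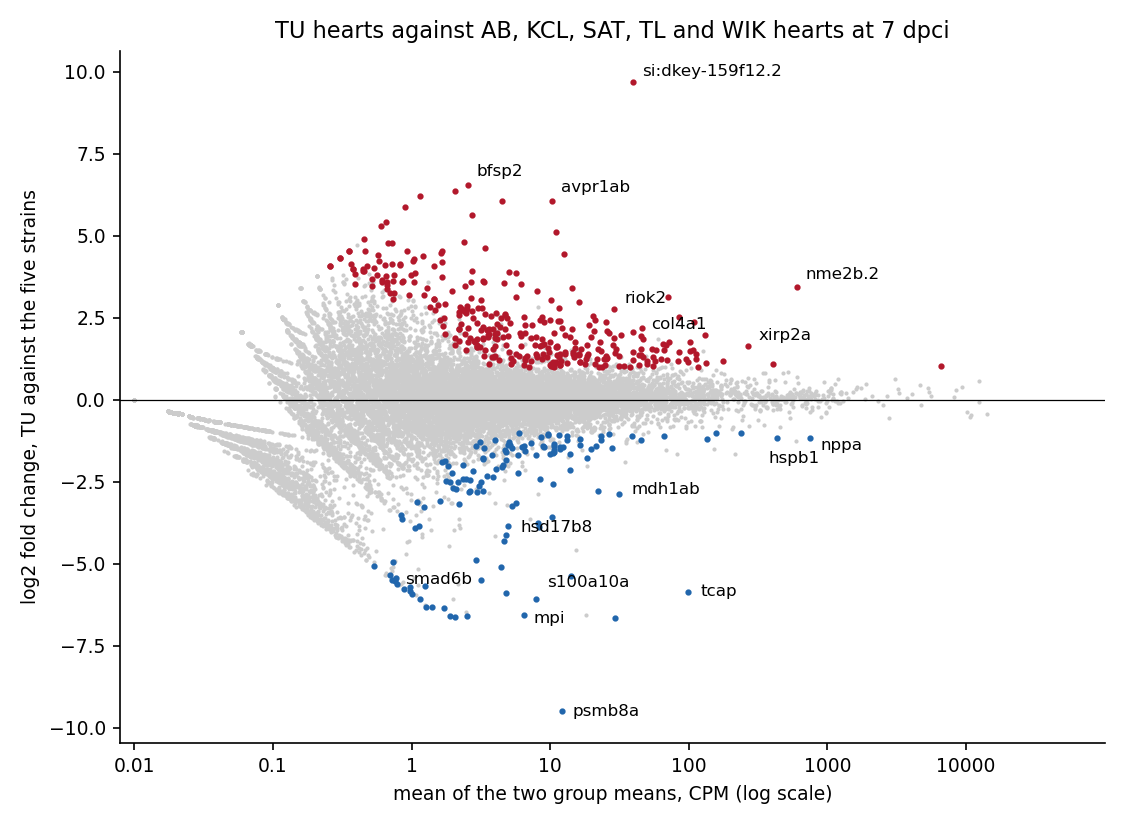
Log2 fold change of TU against the mean of the 5 strains at 7 dpci (vertical axis) by the mean level in CPM (horizontal axis, log scale), for 16890 genes. Red points are the 325 genes past the threshold and higher in TU and blue points the 132 lower; si:dkey-159f12.2 lies farthest up at a log2 fold change of 9.68.

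A mean of 5 strains can be moved by 1 strain in which a gene is near 0, so each strain was also tested alone. TU differed past the threshold from AB in 182 genes (1.08%), from KCL in 313 (1.85%), from SAT in 409 (2.42%), from TL in 250 (1.48%) and from WIK in 442 (2.62%). 17 genes (0.101%) were past the threshold in the same direction against each of the 5 strains, 5 higher and 12 lower, and in all 17 the TU fish did not overlap the 15 others. The count was 8 without TU fish 49, 8 without fish 51 and 15 without fish 52, and 12 to 18 without any 1 of the others.

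The 5 genes that were higher in TU than in each strain were si:dkey-159f12.2, nr4a1, camk2a, col4a1 and klf6a. The unnamed gene si:dkey-159f12.2 (chromosome 8, 26702003 to 26703235, GRCz11) had 103, 80.7 and 55.2 CPM in TU fish 49, 51 and 52, and a lowest, median and highest value of 0, 0 and 0.661 CPM in the 15 others. It was near 0 in every compared heart and well expressed in every TU heart (log2 fold change 9.68, SE 0.67, adjusted p = 4.32e-13 by edgeR). camk2a encodes the alpha subunit of a calcium/calmodulin-dependent kinase and had 40.4, 33.9 and 53.7 CPM in TU against 3.25, 11.5 and 23.8 CPM (log2 fold change 2.05, SE 0.27, adjusted p = 6.41e-07 by edgeR). col4a1 encodes a collagen IV chain of basement membranes and had 56.6, 65.7 and 93.2 CPM against 10.1, 18.5 and 26.4 CPM (log2 fold change 1.95, SE 0.23, adjusted p = 4.47e-08 by edgeR). The lowest TU heart had more col4a1 and camk2a than any heart of the other strains. The transcription factor genes nr4a1 and klf6a are described with the immediate early genes.

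The 12 genes that were lower in TU than in each strain were psmb8a, mpi, s100a10a, tcap, smad6b, si:dkey-33c12.3, cyp2aa6, hsd17b8, anxa3b, ugt5g1, sdhaf2 and rhot1a. Several were close to undetected in TU. tcap encodes titin-cap, a protein of the Z-disc of striated muscle, and lies on chromosome 3 (21240594 to 21242460). It had 5.99, 1.77 and 1.78 CPM in the 3 TU fish and a lowest, median and highest value of 54.1, 167 and 429.7 CPM in the others (log2 fold change -5.85, SE 0.76, adjusted p = 6.18e-07 by edgeR). mpi encodes mannose phosphate isomerase, which supplies mannose for protein glycosylation, and had 1 count in the 3 TU fish together and 688 in the 15 others (ratio of the scaled levels 126, exact 95% interval 22.5 to 4978). s100a10a encodes the binding partner of annexin A2 and had 2 counts against 887 (ratio 81.1, interval 22.4 to 671). smad6b encodes an inhibitor of BMP signalling and had 1 count against 340 (ratio 62.2, interval 11.1 to 2464). These intervals cover counting error only.

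Other genes of this group were still expressed in TU. sdhaf2, an assembly factor of succinate dehydrogenase, had 5.99, 5.01 and 5.34 CPM in TU against 10.6, 15.3 and 21.9 CPM (log2 fold change -1.54, SE 0.27, adjusted p = 0.000211 by edgeR). rhot1a, which encodes a GTPase of the outer mitochondrial membrane needed for the transport of mitochondria, had 15, 10.6 and 15.7 CPM against 22.3, 32.7 and 38.8 CPM (log2 fold change -1.23, SE 0.23, adjusted p = 0.000616 by edgeR). Both ranges lay wholly below those of the other strains. cyp2aa6, named for the cytochrome P450 family and annotated as an unprocessed pseudogene, had 0.299, 0.295 and 0.89 CPM against 1.77, 10.3 and 14.9 CPM. ugt5g1, a glucuronosyltransferase gene, had 2.99, 1.47 and 1.48 CPM against 5.32, 9.49 and 14.7 CPM. The unnamed gene si:dkey-33c12.3 had 0, 0.884 and 0.297 CPM against 1.67, 6.67 and 16.5 CPM.

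**Figure D2:**
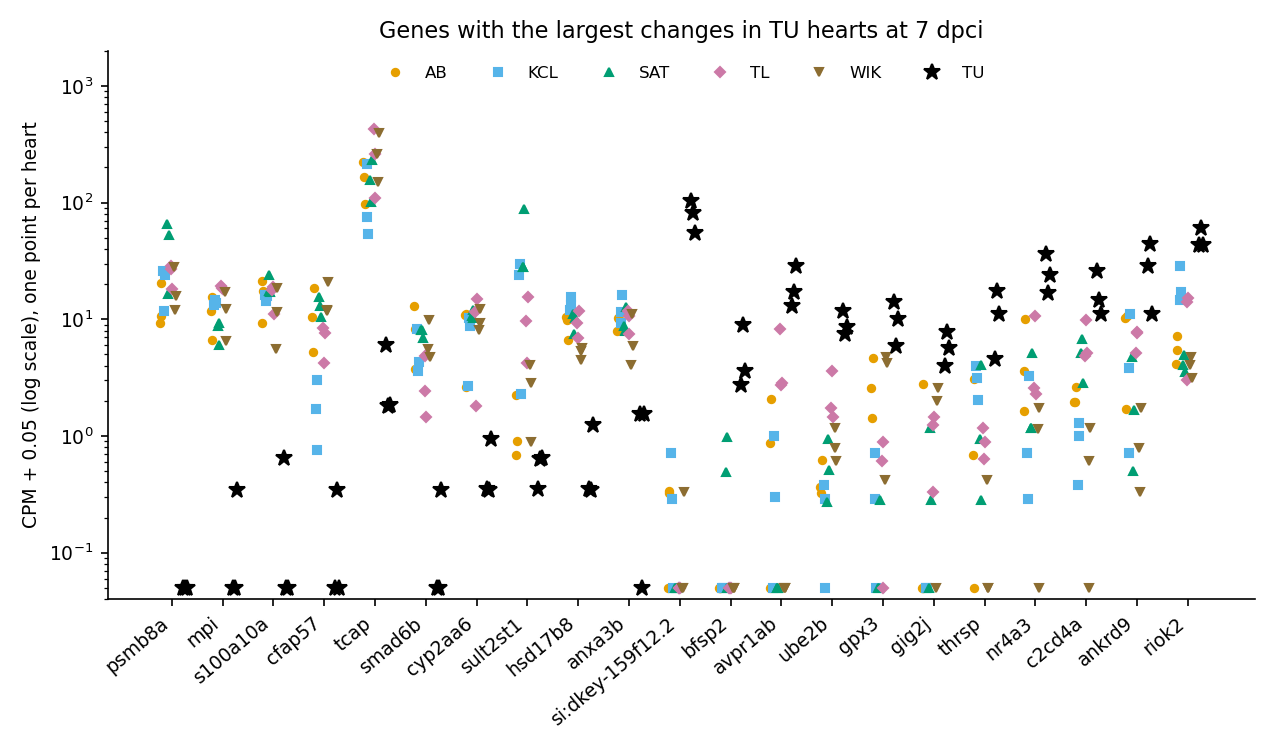
CPM plus 0.05 (log scale) in single hearts at 7 dpci for the genes with the lowest and the largest log2 fold changes. They were taken among genes past the threshold without overlap of fish and with a mean of at least 5 CPM in the higher group. Stars are the 3 TU fish and coloured symbols the 3 fish of each other strain; psmb8a is at 0 in every TU heart and between 9.2 and 65.7 CPM in the 15 others.

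Among the genes with the largest increases, bfsp2, known as an intermediate filament gene of the eye lens, had 2.69, 8.84 and 3.56 CPM in TU and at most 0.922 CPM in the others. avpr1ab, a receptor gene for the vasopressin family of peptides, had 12.9, 17.1 and 28.5 CPM in TU against 0, 0 and 8.12 CPM (log2 fold change 6.07, SE 0.66, adjusted p = 1.52e-08 by edgeR). Both genes were at 0 in most compared hearts. riok2, a kinase gene of ribosome assembly, had 43.4, 60.7 and 43.6 CPM against 2.96, 4.92 and 28.8 CPM (log2 fold change 2.76, SE 0.27, adjusted p = 2.17e-10 by edgeR). ube2b, a ubiquitin-conjugating enzyme gene, had 11.7, 7.37 and 8.6 CPM against 0, 0.558 and 3.55 CPM. The glutathione peroxidase gene gpx3 (log2 fold change 3.88), gig2j (3.61), thrsp (3.52), nr4a3 (3.39), c2cd4a (3.04) and ankrd9 (2.97) completed the 10 largest. These 10 were taken only among genes with a gene name, no overlap between the groups and a mean of at least 5 CPM in the higher group. thrsp, which is tied to lipid synthesis, had 4.49, 17.4 and 11 CPM against at most 4.02 CPM. With 1 RUVg factor the calls of thrsp and gpx3 were lost (adjusted p = 0.0845 and 0.0572 by edgeR).

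Of the 10 lowest genes under the same conditions, cfap57 and sult2st1 were not past the threshold against each strain. cfap57, a gene of motile cilia, had 1 count in TU and 529 in the others (ratio 96.8, interval 17.3 to 3829). The sulfotransferase gene sult2st1 varied from 0.635 to 88.1 CPM among the compared fish and had 0.299, 0.589 and 0.593 CPM in TU. Its call was lost without any 1 of the 3 TU fish, among others: sult2st1 (TU fish 49, 51 or 52, AB fish 27, TL fish 46, WIK fish 58, adjusted p up to 0.178, log2 fold change -4.01 to -3.62).

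A group of the lowest genes lay side by side in the core MHC class I region of chromosome 19. This region holds genes of the immunoproteasome (psmb8a, psmb9a, psmb12, psmb13a), which cuts proteins into peptides for display, the peptide transporter tap2a, tapasin (tapbp.1, tapbp.2), which loads peptides, and class I genes such as mhc1uba. psmb8a (7105838 to 7144548, GRCz11) had 0 counts in all 3 TU fish and 9.2, 20.4 and 65.7 CPM as the lowest, median and highest value in the others. This is at least 82.4-fold lower when 3 counts over the TU group are taken as the floor (adjusted p = 0.00076 by edgeR). psmb12, inside the annotated span of psmb8a, also had 0 counts in TU and 294 in the others, at least 16.9-fold lower (adjusted p = 0.0195 by edgeR). tapbp.1 had 1 count against 328 (adjusted p = 0.00292). hsd17b8, an oxidoreductase gene at the edge of the block, had 0.299, 0.295 and 1.19 CPM against 4.4, 9.85 and 15.5 CPM (adjusted p = 1.19e-05), and daxx, a histone chaperone gene, 2.1, 1.47 and 1.19 CPM against 2.86, 4.46 and 5.71 CPM (adjusted p = 0.0389). psmb8a, hsd17b8 and daxx did not overlap. The call of daxx is not followed here in the fits with 1 fish left out.

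WIK fish were low in part of this block. They had 0 to 0.279 CPM of psmb12 and 0 to 1.47 CPM of tapbp.1, but 12 to 28.2 CPM of psmb8a. The calls that depended on 1 fish were psmb12 (TU fish 49, 51 or 52, WIK fish 60 or 61, adjusted p up to 0.101, log2 fold change -6.69 to -6.51) and tapbp.1 (WIK fish 58, adjusted p up to 1, log2 fold change -6.97 to -4.10). Other genes of the block had few or no counts in TU without passing the threshold. psmb13a had 0 counts in TU against 282 (adjusted p = 0.0568 by edgeR), psmb9a 0 against 89 (adjusted p = 0.115) and tap2a 1 against 161 (adjusted p = 0.114). WIK fish were low in these genes too, with 0 to 0.279 CPM of psmb13a, 0 to 0.836 CPM of psmb9a and 0 to 1.11 CPM of tap2a. At 1 dpci, psmb13a had 23.8 CPM in TU fish 48 and 0 CPM in fish 54, a difference that enters the spread behind its p-value. mhc1uba had 2.1, 5.6 and 3.56 CPM in TU and 0, 108 and 516 CPM in the others (adjusted p = 0.722), with TL and WIK fish at most at 0.281 CPM. brd2a, which lies inside the block, had 44.6, 44.2 and 40.6 CPM against 19.8, 39 and 49.9 CPM, and the neighbour sdha 149, 165 and 148 CPM against 91.1, 127 and 224 CPM, both inside the range of the other strains. Within 300 kb of psmb8a, 25 genes were tested, and 5 were past the threshold, all lower, against 0.782% of all genes. This window was placed around psmb8a because of its low level, and psmb8a is 1 of the 5. Genes of this region have close relatives, haplotype forms and overlapping spans, all reads were aligned to 1 reference genome, and the part of such sequence differences in these counts was not tested.

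**Figure D3:**
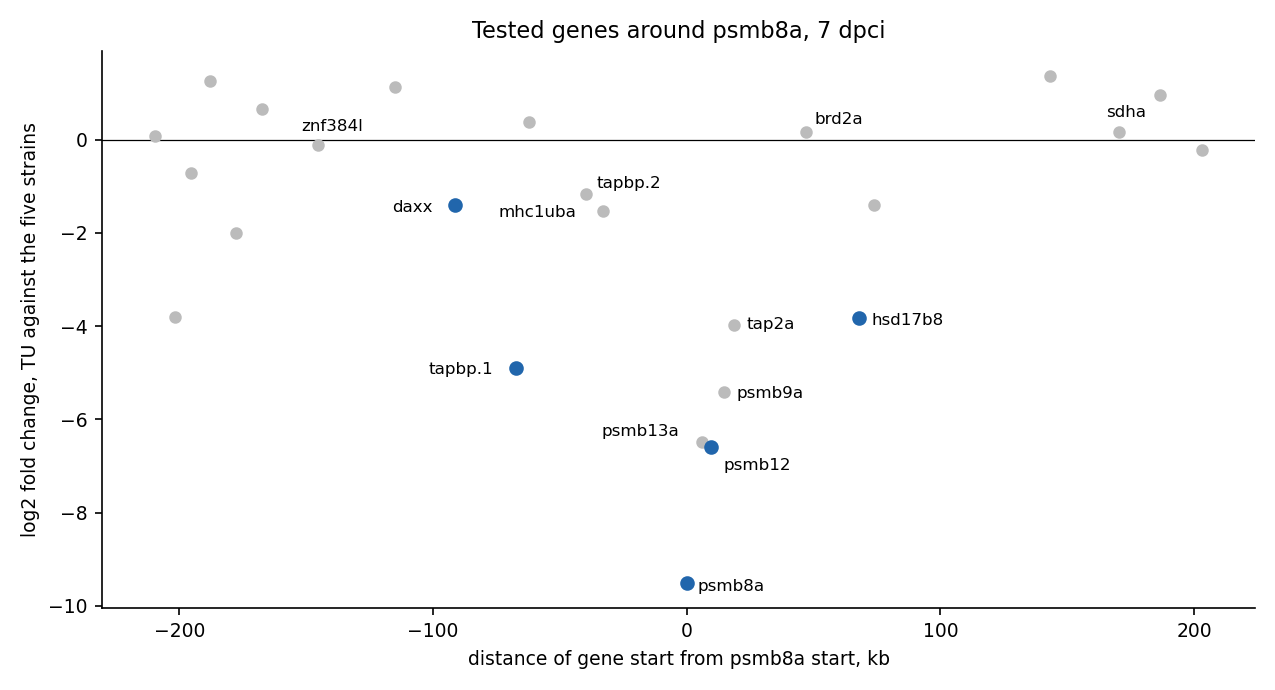
Log2 fold change of TU against the 5 strains at 7 dpci (vertical axis) for the 25 tested genes around psmb8a, by distance from the start of psmb8a in kb (horizontal axis). The 5 genes past the threshold are all below 0, and brd2a (0.16) and sdha (0.17) lie near 0; values of genes at 0 counts in TU depend on the prior count of the fit.

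Across the 32 tested genes of MHC and antigen presentation, 3 were lower (psmb8a, psmb12 and tapbp.1) and 1 was higher. The median log2 fold change was -0.90, or -0.64 with the 7 genes at 0 counts in TU set to their bound, beside -0.02 for all genes. The higher gene was mhc2b, a class II gene, with 2.1, 1.18 and 2.67 CPM in TU. AB fish had 0.574 to 4.13 CPM, and the other 4 strains at most 0.279 CPM, so that TU overlapped AB (log2 fold change against AB -0.02, adjusted p = 1).

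Along the chromosomes, 44 of 447 genes past the threshold (9.84%) had another such gene as their next tested neighbour, and 5.28% of all tested genes had one. The block on chromosome 19 (7014455 to 7179694) with daxx, tapbp.1, psmb8a, psmb12 and hsd17b8 was the only run of 5 with gaps under 300 kb. A run of 4 on chromosome 22 (5667371 to 6082447) held dnase1l4.1 and dnase1l4.2, a pair of DNase I-like genes, with si:rp71-36a1.2 and si:dkey-19a16.2. It had 2 higher and 2 lower genes, whereas all 5 on chromosome 19 were lower.

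Immediate early genes are switched on within minutes of a stimulus, and many encode transcription factors such as those of the AP-1, NR4A and KLF families. 7 of 30 tested were past the threshold, all higher, against 1.92% of all genes. 27 of 30 had a fitted value above 0, and the median log2 fold change was 0.85, beside -0.02 for all genes. In each list below, the shares to compare for genes past the threshold are 1.92% of all genes higher and 0.782% lower. Their summed level was 1536, 1495 and 1587 CPM in TU fish 49, 51 and 52 and 726, 1023 and 1281 CPM at the lowest, median and highest of the 15 others, so that the groups did not overlap. nr4a1, a nuclear receptor gene, had 56.6, 23.3 and 24.3 CPM in TU against 1.11, 5.34 and 19 CPM (log2 fold change 2.57, SE 0.36, adjusted p = 5.03e-06 by edgeR). Its relative nr4a3 had 36.2, 16.8 and 24 CPM against 0, 1.67 and 10.6 CPM (log2 fold change 3.39, SE 0.59, adjusted p = 0.000159 by edgeR). The zinc finger gene klf6a had 121, 72.2 and 99.98 CPM against 30.5, 37.9 and 61.5 CPM, and jund, an AP-1 subunit, had 200.2, 102 and 162 CPM against 19.2, 36.7 and 125 CPM. In jund the lowest TU fish was below the highest of the others, while nr4a1, nr4a3 and klf6a did not overlap.

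The other 3 genes past the threshold were klf2a, which responds to blood flow in endothelium (52.4, 38.6 and 43 CPM against at most 32.7 CPM), ier2b (16.2, 17.7 and 16.3 CPM against at most 15 CPM) and the antiproliferative gene btg2 (90.4, 37.1 and 86.9 CPM against 7.66, 13.8 and 73.3 CPM). The call of btg2 was lost in part of the fits with 1 fish left out: btg2 (TU fish 49 or 52, adjusted p up to 0.062, log2 fold change 1.66 to 2.204). TU fish 49 had the highest value of the 3 in nr4a1, nr4a3, klf6a, jund, klf2a and btg2. Without it and SAT fish 38 the median of the list was 0.77. At 1 dpci the same list had a median of -0.62 in TU, and in the libraries titled uninjured TU and uninjured NA it was -0.23 and -0.46.

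**Figure D4:**
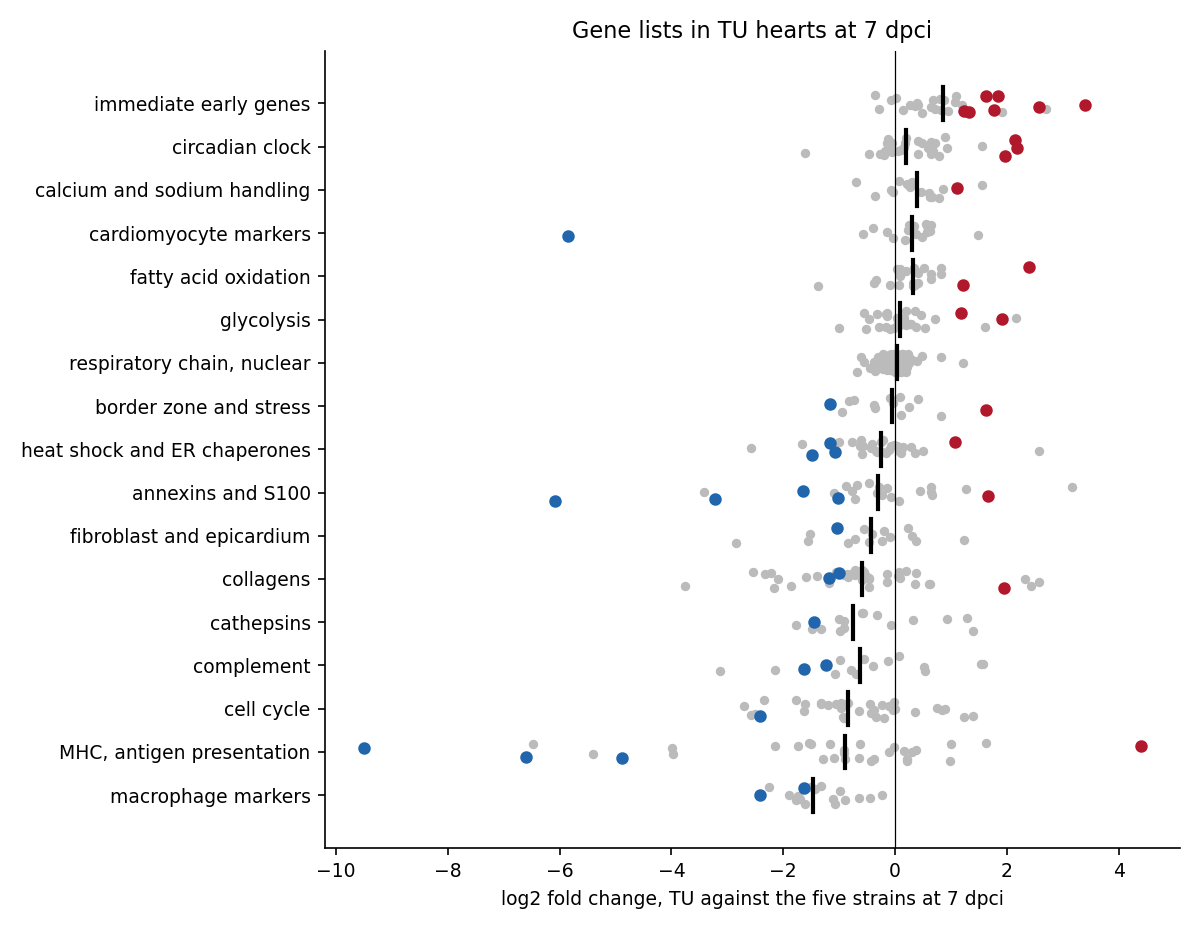
Log2 fold change of TU against the 5 strains at 7 dpci for the genes of the lists shown, 1 point a gene, with the median as a bar. Coloured points are past the threshold; the immediate early genes have a median of 0.85 and the macrophage markers of -1.47.

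All 18 macrophage markers tested had a fitted value below 0 in TU. Their median was -1.47 (-1.22 with 2 genes at 0 counts in TU set to their bound), beside -0.02 for all genes. 2 were past the threshold, against 0.782% of all genes lower. mpeg1.1, a pore-forming gene that is a standard macrophage marker in fish, had 1.2, 1.77 and 4.15 CPM in TU against 4.74, 13.8 and 33.2 CPM (log2 fold change -2.42, SE 0.58, adjusted p = 0.00905 by edgeR). c1qc, a complement component made by macrophages, had 4.19, 2.65 and 8.31 CPM against 3.17, 15 and 27.4 CPM (adjusted p = 0.045 by edgeR). The summed level was 137, 147 and 212 CPM in TU and 188, 427 and 871 CPM in the others, so that fish 49 and 51 lay below all 15 and fish 52 did not. Both calls depended on single fish: mpeg1.1 (TU fish 49 or 51, adjusted p up to 0.103, log2 fold change -3.06 to -2.08) and c1qc (TU fish 49, 51 or 52, AB fish 27 or 5, KCL fish 66 or 67, SAT fish 38, TL fish 45, WIK fish 58, adjusted p up to 0.327, log2 fold change -2.18 to -1.304). Neither was past the threshold with limma-voom or with 1 factor of unwanted variation (RUVg) in the fit. In whole ventricles, fewer cells of a type and less RNA per cell cannot be told apart.

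None of 12 neutrophil and 9 lymphocyte markers was past the threshold by edgeR, DESeq2 or limma-voom, and none had an unadjusted p below 0.05 by edgeR. Their summed levels in TU were at most 19 and 2.08 CPM, against 5.02, 11.8 and 226 and 0, 2.23 and 8.49 CPM at the lowest, median and highest of the others, and differences at such levels were hardly detectable. Of 16 complement genes c1qc and c6 were lower, and c6, a component of the membrane attack complex, had 18.3, 25.9 and 35 CPM against 37.7, 57.6 and 128 CPM. Of 16 cathepsins 1 was lower, ctsk, whose product digests collagen (4.49, 5.89 and 2.67 CPM against 3.36, 10.8 and 36.7 CPM), and the summed level of the 16 was 174, 195 and 171 CPM in TU and 204, 261 and 459 CPM in the others, without overlap. Of 51 chemokines and receptors 1 was higher, cxcl12a, which guides migrating cells (49.4, 95.5 and 70.9 CPM against 16.7, 35.2 and 80.01 CPM), and 23 of the 51 were at 0 counts in TU. The list median was -0.98, and 0 with these 23 genes set to their bound, so their zeros show no clear difference. Each of these calls was lost with some fish left out: c6 (TU fish 49 or 51, adjusted p up to 0.188, log2 fold change -1.47 to -1.001), ctsk (TU fish 49, 51 or 52, adjusted p up to 0.192, log2 fold change -1.71 to -1.18) and cxcl12a (TU fish 51 or 52, AB fish 24, SAT fish 38 or 40, TL fish 46, WIK fish 61, adjusted p up to 0.355, log2 fold change 0.80 to 1.26). With 1 RUVg factor the calls of c6, ctsk and cxcl12a were also lost. That of ctsk was lost with limma-voom too, and that of cxcl12a with DESeq2.

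Of 40 collagens tested, 2 were lower and 1, col4a1, was higher, against 0.782% and 1.92% of all genes. 28 had a fitted value below 0 and 12 above, and the median log2 fold change was -0.59 (-0.47 with 6 genes at 0 counts in TU set to their bound). col1a1a, a chain of the fibrillar collagen of scars, had 82.6, 63.9 and 95.5 CPM in TU against 98, 174 and 379 CPM (log2 fold change -1.18, SE 0.35, adjusted p = 0.041 by edgeR). col5a1 had 88.3, 103 and 111 CPM against 96.6, 202 and 369 CPM (adjusted p = 0.0219 by edgeR). Both genes for the collagen chaperone Hsp47, serpinh1a (5.39, 5.89 and 6.82 CPM against 8.21, 11.5 and 21.6 CPM) and serpinh1b (9.58, 12.4 and 8.9 CPM against 13.5, 27.6 and 44.9 CPM), were lower and, like col1a1a, did not overlap. Of 16 markers of fibroblasts and epicardium 1 was lower, aldh1a2, which makes retinoic acid in the activated epicardium and endocardium (15, 16.2 and 19.9 CPM against 19.5, 35.6 and 68 CPM). The marker sum was 585, 665 and 772 CPM in TU and 634, 885 and 1373 CPM in the others, and its part in these differences was not tested.

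The calls of the collagen group were close to the threshold, and each was lost without any 1 of the 3 TU fish. These were col1a1a (TU fish 49, 51 or 52, AB fish 24, KCL fish 67, SAT fish 38, TL fish 45, WIK fish 58, adjusted p up to 0.284, log2 fold change -1.302 to -1.01), col5a1 (TU fish 49, 51 or 52, AB fish 24, KCL fish 65 or 67, SAT fish 39, TL fish 45, WIK fish 58 or 61, adjusted p up to 0.157, log2 fold change -1.07 to -0.90), serpinh1a (TU fish 49, 51 or 52, KCL fish 67, TL fish 45, WIK fish 58, adjusted p up to 0.195, log2 fold change -1.16 to -0.96), serpinh1b (TU fish 49, 51 or 52, adjusted p up to 0.124, log2 fold change -1.62 to -1.38) and aldh1a2 (TU fish 49, 51 or 52, TL fish 45, WIK fish 60, adjusted p up to 0.189, log2 fold change -1.15 to -0.94). Without both TU fish 49 and SAT fish 38 none of the 5 was past the threshold. col4a1 kept its call in every fit.

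Of 35 cell cycle genes 1 was lower and 0 higher, against 0.782% and 1.92% of all genes. 29 had a fitted value below 0, and the median was -0.85, beside -0.02 for all genes. rrm1, a subunit of ribonucleotide reductase, was past the threshold (1.5, 0.589 and 0 CPM against 0.843, 3.36 and 8.61 CPM), and its call was lost in some fits: rrm1 (TU fish 51 or 52, AB fish 5, TL fish 45, adjusted p up to 0.232, log2 fold change -3.55 to -1.83). The call of rrm1 was also lost with 1 RUVg factor, and without WIK among the compared strains. The summed level was 54.5, 57.2 and 82.5 CPM in TU and 58.8, 94.1 and 239.8 CPM in the others, and it overlapped. With TU fish 49 and SAT fish 38 left out, the median was -0.49.

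Of 19 cardiomyocyte markers tested, tcap was lower and none was higher past the threshold. 14 had a fitted value above 0 and 5 below, and the median was 0.30. tnnt2a, cardiac troponin T, had 4108, 3588 and 3436 CPM in TU against 1547, 2289.6 and 3326 CPM, with adjusted p = 0.00226 by edgeR but a log2 fold change of 0.64, under the 2-fold limit. myh7l, a myosin heavy chain, had 14767, 16679.6 and 12903 CPM against 7813, 9724 and 12132 CPM (log2 fold change 0.57, adjusted p = 0.0144). Neither gene overlapped. The marker sum was 50306, 54807 and 49827 CPM in TU and 29643, 42552 and 49842 CPM in the others. The titin-cap transcript was thus low in hearts whose summed cardiomyocyte markers were at the top of the range, and the part of the muscle content of the sample in other results was not tested.

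Of the 14 border zone and stress genes, xirp2a was higher and nppa lower. xirp2a, which encodes an actin-binding protein of the intercalated disc, had 316, 425 and 448 CPM in TU against 52.5, 136 and 264 CPM (log2 fold change 1.62, SE 0.28, adjusted p = 0.000117 by edgeR), without overlap. nppa, the natriuretic peptide that marks border zone cardiomyocytes, had 293, 317 and 747 CPM against 719, 1020.2 and 1596 CPM (log2 fold change -1.16, SE 0.31, adjusted p = 0.0222 by edgeR). Fish 49 and 51 lay below all others in nppa and fish 52 did not. Of 16 genes of calcium and sodium handling, casq2, the calcium store protein calsequestrin, was higher (457, 547 and 592 CPM against 93.9, 194 and 619 CPM), and WIK fish overlapped TU. The calls of nppa and casq2 depended on single fish: nppa (TU fish 49 or 51, adjusted p up to 0.249, log2 fold change -1.71 to -0.90) and casq2 (TU fish 52, adjusted p up to 0.0515, log2 fold change 1.03 to 1.22).

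Among 32 heat shock and endoplasmic reticulum genes, the small heat shock gene hspb1 was lower, with 266, 277 and 241 CPM against 372, 568 and 1101 CPM (log2 fold change -1.17, SE 0.22, adjusted p = 0.00066 by edgeR), beside serpinh1a and serpinh1b. ddit3, a transcription factor gene of the unfolded protein response, was higher (22.1, 22.7 and 27 CPM against 2.57, 11 and 19.3 CPM), and lost its call with 1 fish left out: ddit3 (TU fish 52, adjusted p up to 0.0762, log2 fold change 1.002 to 1.15). The summed level of the list was 2671, 2709.9 and 2759 CPM in TU and 2849, 3536 and 4323 CPM in the others, without overlap.

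None of the 86 nuclear genes of the respiratory chain and ATP synthase was past the threshold by edgeR, DESeq2 or limma-voom, 6 had an unadjusted p below 0.05 (4 higher, 2 lower) by edgeR, and the median was 0.03. Their summed level was 30600, 26573 and 26366 CPM in TU fish 49, 51 and 52. SAT fish had the lowest sums (16662 to 21617 CPM), which lower the compared mean, and AB, KCL, TL and WIK fish had 25538 to 32955 CPM. None of 13 mitochondrially encoded genes and none of 17 genes of the citric acid cycle was past the threshold with any of these tools, with 5 (1 higher, 4 lower) and 6 (all higher) at an unadjusted p below 0.05. At that limit, 9.67% of all genes were higher and 5.92% lower by edgeR. In the citric acid cycle 11 of 17 had a fitted value above 0 and the median was 0.24. Of 10 genes of the malate-aspartate shuttle, mdh1ab was lower. This cytosolic malate dehydrogenase had 4.79, 6.19 and 5.93 CPM in TU and 4.92, 58.9 and 103.97 CPM at the lowest, median and highest of the others (log2 fold change -2.88, SE 0.52, adjusted p = 0.000246 by edgeR). SAT fish had 4.92 to 7.61 CPM and overlapped TU (log2 fold change against SAT -0.15, adjusted p = 0.993). The log2 fold change against AB, KCL, TL and WIK was -3.48, -2.99, -3.75 and -4.03. The paralog mdh1aa had 517, 563 and 479.7 CPM against 366, 556 and 840.0 CPM (log2 fold change -0.12, adjusted p = 0.887).

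In glycolysis, 2 of 29 genes were higher. pfkmb, muscle phosphofructokinase, had 133, 127 and 83.4 CPM against 29, 52.4 and 80.01 CPM (log2 fold change 1.19, SE 0.22, adjusted p = 0.000354 by edgeR) without overlap. With 1 RUVg factor its log2 fold change was 0.82, under the 2-fold limit. tpi1a, triosephosphate isomerase, had 27.5, 22.1 and 14.8 CPM against 1.61, 5.81 and 16.5 CPM (adjusted p = 0.000212 by edgeR). The list as a whole had a median of 0.09. Of 25 genes of fatty acid oxidation 2 were higher and 0 lower, against 1.92% and 0.782% of all genes. 21 had a fitted value above 0, and the median was 0.33, beside -0.02 for all genes. Their summed level was 4527, 2668 and 2047 CPM in TU fish 49, 51 and 52 and 1025, 2243 and 3092 CPM in the others, so that fish 49 alone lay above them. The median log2 ratio of the list to the mean of the 15 others was 0.81 in fish 49, 0.01 in fish 51 and -0.20 in fish 52. SAT fish had the lowest sums (1025 to 1766 CPM). cpt1ab, which gates the import of fatty acids into mitochondria, was higher (99.4, 38.6 and 24 CPM against 9.35, 24 and 47.9 CPM), and the call was lost with 1 fish left out: cpt1ab (TU fish 49, adjusted p up to 0.583, log2 fold change 0.44 to 1.59). The call of cpt1ab was also lost with 1 RUVg factor, and without both TU fish 49 and SAT fish 38. acaa2, a thiolase, was also higher, with 12.3, 12.7 and 12.16 CPM in TU. It was 0 in SAT and at most 0.661 CPM in KCL, while AB, TL and WIK fish had 11.5 to 38.2 CPM, and TU fish lay within that range. Its call was lost in several fits: acaa2 (TU fish 49, 51 or 52, SAT fish 38, adjusted p up to 0.111, log2 fold change 2.34 to 2.52). Of 12 tested genes of the glucocorticoid and fasting response 1 was higher, pdk2b, and 0 lower, and the list median was 0.10. pdk2b, a kinase that inhibits pyruvate dehydrogenase, had 122, 17.4 and 43.6 CPM against 2.46, 8.96 and 70.04 CPM, and depended on 9 of the 18 fish: pdk2b (TU fish 49 or 52, AB fish 24 or 27, KCL fish 65, SAT fish 38, TL fish 44 or 46, WIK fish 60, adjusted p up to 0.595, log2 fold change 1.09 to 2.53). The call of pdk2b was also lost with DESeq2, with limma-voom and with 1 RUVg factor.

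nme2b.2, a nucleoside diphosphate kinase gene with near copies in the genome, had 474, 525 and 2101 CPM against 18.7, 59 and 1344 CPM (adjusted p = 7.13e-06 by edgeR). AB fish ranged from 34.7 to 1344 CPM, and the log2 fold change against AB alone was 0.77 (adjusted p = 0.73). arg2, mitochondrial arginase, had 81.7, 296 and 249.8 CPM against 15.2, 49.8 and 111 CPM (adjusted p = 4.59e-05), with fish 49 within the range of the others. Of 28 antioxidant genes, gpx3 (14.1, 5.89 and 10.1 CPM against 0, 0.56 and 4.74 CPM) and gpx4a (81.4, 48 and 69.4 CPM against 8.64, 15.2 and 50.1 CPM) were higher, and the latter lost its call with 1 fish left out: gpx4a (TU fish 49, adjusted p up to 0.0513, log2 fold change 1.40 to 1.77). With 1 RUVg factor the call of gpx4a was also lost (adjusted p = 0.152 by edgeR).

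Of 33 circadian genes 3 were higher. arntl1b, a core activator of the clock, had 3.29, 3.54 and 3.86 CPM against at most 1.4 CPM (adjusted p = 0.00588 by edgeR). Its call was lost with 1 RUVg factor (adjusted p = 0.0703 by edgeR). The clock output gene nfil3-6 had 6.29, 3.83 and 7.42 CPM against at most 3.24 CPM (adjusted p = 0.00319 by edgeR). nfil3-5 had 5.69, 33.6 and 18.1 CPM against 0.861, 5.14 and 29.6 CPM and overlapped. The calls of both nfil3 genes were lost with 1 fish left out: nfil3-5 (TU fish 51, adjusted p up to 0.259, log2 fold change 1.302 to 2.41) and nfil3-6 (TU fish 52, adjusted p up to 0.0534, log2 fold change 1.96 to 2.40). Of 46 mitochondrial carriers of the SLC25 family, slc25a51b, known in human as an NAD+ carrier (20.7, 23.9 and 16.9 CPM against 1.41, 8.08 and 21 CPM), and slc25a55b (8.98, 13.3 and 19.6 CPM against 2.23, 6.02 and 12.7 CPM) were higher, and the second was lost in some fits: slc25a55b (TU fish 51 or 52, AB fish 27, SAT fish 38, TL fish 46, WIK fish 60, adjusted p up to 0.357, log2 fold change 0.82 to 1.39).

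Of 24 annexins and S100 genes 4 were lower and 1 higher. Beside s100a10a, anxa3b had 1.5, 0 and 1.48 CPM against 4.04, 10.05 and 16 CPM, and anxa4 had 8.98, 5.6 and 5.34 CPM against 13.4, 20.5 and 30.01 CPM, both without overlap. NA fish at 7 dpci, outside the comparison group, had 0.221 to 0.95 CPM of anxa3b, inside the TU range. anxa2a, whose product binds that of s100a10a, had 121, 116 and 187 CPM against 106, 279 and 899.5 CPM and overlapped SAT (106 to 138 CPM). The call of anxa2a was lost in many fits: anxa2a (TU fish 49 or 51, AB fish 27, KCL fish 66 or 67, SAT fish 39, TL fish 45, WIK fish 58, adjusted p up to 0.182, log2 fold change -1.25 to -0.86). The higher gene, anxa6, had 72.7, 72.5 and 71.5 CPM in TU, inside the range of AB, KCL and SAT (38.6 to 82.9 CPM) and below WIK. TL fish had 0 to 0.562 CPM, and without TL the log2 fold change was -0.011 (adjusted p = 1).

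Multigene families gave few calls. Of 47 genes of the NLR, finTRIM and GIMAP families, ftr76 and ftr90 were lower, with 0 counts of ftr76 in TU against 212, at least 12.7-fold lower, and 3 counts of ftr90 against 165. The summed level of the 47 was 25.4, 27.7 and 30.6 CPM in TU and 36.5, 45.7 and 65.7 CPM in the others, without overlap. These neighbours on chromosome 15 overlap in the annotation. Both calls were lost in some fits: ftr76 (TL fish 44, adjusted p up to 1, log2 fold change -6.71 to -5.74) and ftr90 (TU fish 49 or 52, adjusted p up to 0.128, log2 fold change -3.92 to -2.52). Of 177 zinc finger genes named znf, znf326 (38.6, 40.7 and 33.2 CPM against 0.279, 8.27 and 39.9 CPM), znf1181 (0.898, 1.18 and 1.78 CPM against at most 0.894 CPM) and znf1047 (1.5, 0 and 1.48 CPM against at most 1.1 CPM) were higher. The call of znf1047 was lost without any 1 of 15 of the 18 fish (adjusted p up to 0.177), TU fish 49 and 52 among them. Reads of such families can match several copies, and their values are uncertain for that reason.

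An unnamed mitochondrially encoded RNA, NC_002333.17, was higher in TU, with 7399.6, 7309 and 11635 CPM against 2025, 4152 and 8283 CPM (log2 fold change 1.04, SE 0.21, adjusted p = 0.00122 by edgeR). Its call was lost in some fits: NC_002333.17 (TU fish 52, WIK fish 60, adjusted p up to 0.0721, log2 fold change 0.81 to 1.18).

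In 20 of the 43 lists no gene was past the threshold. Beside those given above these were the mitochondrial (74 tested) and cytosolic (83) ribosome, the proteasome (38), the interferon response (25), cholesterol synthesis (19), cardiac transcription factors (17), heme and iron handling (17), metalloproteinases and their inhibitors (15), and the markers of endocardium and endothelium (16), erythrocytes (15), skeletal muscle (15), bulbus and atrium (8), thrombocytes (7), liver and plasma (7) and pancreas (7). Over the 500 genes of the 20 lists, 37 were higher and 31 lower at an unadjusted p below 0.05 by edgeR, against 9.67% and 5.92% of all genes. DESeq2 put 1 of them past the threshold, an interferon gene that was lower, and limma-voom 0. Some of these lists still leaned to 1 side. Fitted values were below 0 in 13 of 15 metalloproteinase and inhibitor genes (median -0.83, or -0.55 with genes at 0 counts in TU set to their bound). The same held for 29 of 38 proteasome genes (median -0.20) and 18 of 25 interferon genes (-0.42, or -0.20 at the bound). In the cytosolic ribosome 65 of 83 were above 0 (median 0.09). In cardiac transcription factors, gata6 (48.2, 58.1 and 51.3 CPM against 22.7, 29.7 and 36.3 CPM, adjusted p = 0.00159 by edgeR) and gata5 (28.1, 33.9 and 23.1 CPM against 36.5, 45.9 and 68.2 CPM, adjusted p = 0.0135) differed in opposite directions by less than 2-fold, each without overlap.

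The genes past the threshold at 7 dpci were then followed into the other libraries named TU and NA, which entered the comparison at 7 dpci only through the gene filter, the scaling and the shared estimate of the spread. The time label also differs from the title in 4 of the libraries used here, TU fish 1 and SAT fish 3, titled uninjured, and TL fish 41 and WIK fish 55, titled 1 dpci. At 1 dpci, where 2 TU fish were compared with the 5 strains, 359 of the 457 (78.6%) had the same sign, against 57.8% of all genes. 77 were past the threshold in the same direction and 2 in the opposite one, where 2.1% of all genes were past the threshold. The single fish differed, and 86% of the 457 were on the same side in fish 54 and 48.4% in fish 48. In the libraries titled uninjured NA, 396 of 457 (86.7%) had the same sign, against 62.8% of all genes, and 133 were past the threshold in the same direction and 0 in the opposite one (2.01% of all genes past it). In the libraries titled uninjured TU, 208 (45.5%) had the same sign, against 48.8% of all genes, and 25 were past the threshold in the same direction and 3 in the opposite one (1.73% of all genes past it). Without TU fish 1 the libraries titled uninjured TU had 154 genes past the threshold instead of 293, and without SAT fish 3, TL fish 41 or WIK fish 55 the counts stayed within 1.5 times. Over the 5419 genes with at least 5 CPM, the log2 fold changes at 7 dpci had r = 0.33 with those of TU at 1 dpci, -0.06 with those of the libraries titled uninjured TU and 0.66 with those titled uninjured NA, again across genes.

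The levels of 4 genes past the threshold against each strain, picked after their values were seen, are given for these libraries. Except in 1 library for psmb8a, they were close to those of TU at 7 dpci in fish 54 and the libraries titled uninjured NA. They were close to the other strains in fish 48 and those titled uninjured TU. si:dkey-159f12.2 had 71.9 CPM in TU fish 54 at 1 dpci and 22.6 to 47.8 CPM in the libraries titled uninjured NA. It had 0 CPM in fish 48, at most 0.713 CPM in the libraries titled uninjured TU and at most 0.221 CPM in NA at 7 dpci. tcap had 2.89 CPM in fish 54 and 0.683 to 4.38 CPM in the libraries titled uninjured NA, and 115 CPM in fish 48 and 94.8 to 154 CPM in those titled uninjured TU. psmb8a had 0 CPM in fish 54, 74.4 CPM in fish 48, 0 to 9.49 CPM in the libraries titled uninjured NA and 33.1 to 51.2 CPM in those titled uninjured TU. col4a1 had 44.2 CPM in fish 54 and 17 CPM in fish 48. It had 39.6 to 97.7 CPM in the libraries titled uninjured NA and 10.02 to 15.7 CPM in those titled uninjured TU. In the libraries titled uninjured NA, psmb8a, mpi, s100a10a, anxa3b, camk2a, si:dkey-33c12.3, nr4a1 and klf6a were not past the threshold (adjusted p of 0.0594 or more by edgeR). The other genes of that group were past it in the same direction. At least nr4a1, klf6a, cyp2aa6 and si:dkey-33c12.3 did not follow the division above. si:dkey-33c12.3 had at most 1.34 CPM in uninjured hearts of the 5 strains and 0 to 3.09 CPM in the libraries titled uninjured TU. nr4a1 was low in all of these libraries, with 1.61 and 2.07 CPM in fish 48 and 54, 3.6 to 6.65 CPM in the libraries titled uninjured TU and 2.92 to 10.2 CPM in those titled uninjured NA. klf6a had 40.3 and 45.1 CPM in fish 48 and 54 and 36.9 to 53.8 CPM in the libraries titled uninjured NA, and cyp2aa6 had 0.218 to 3.33 CPM in those titled uninjured TU.

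**Figure D5:**
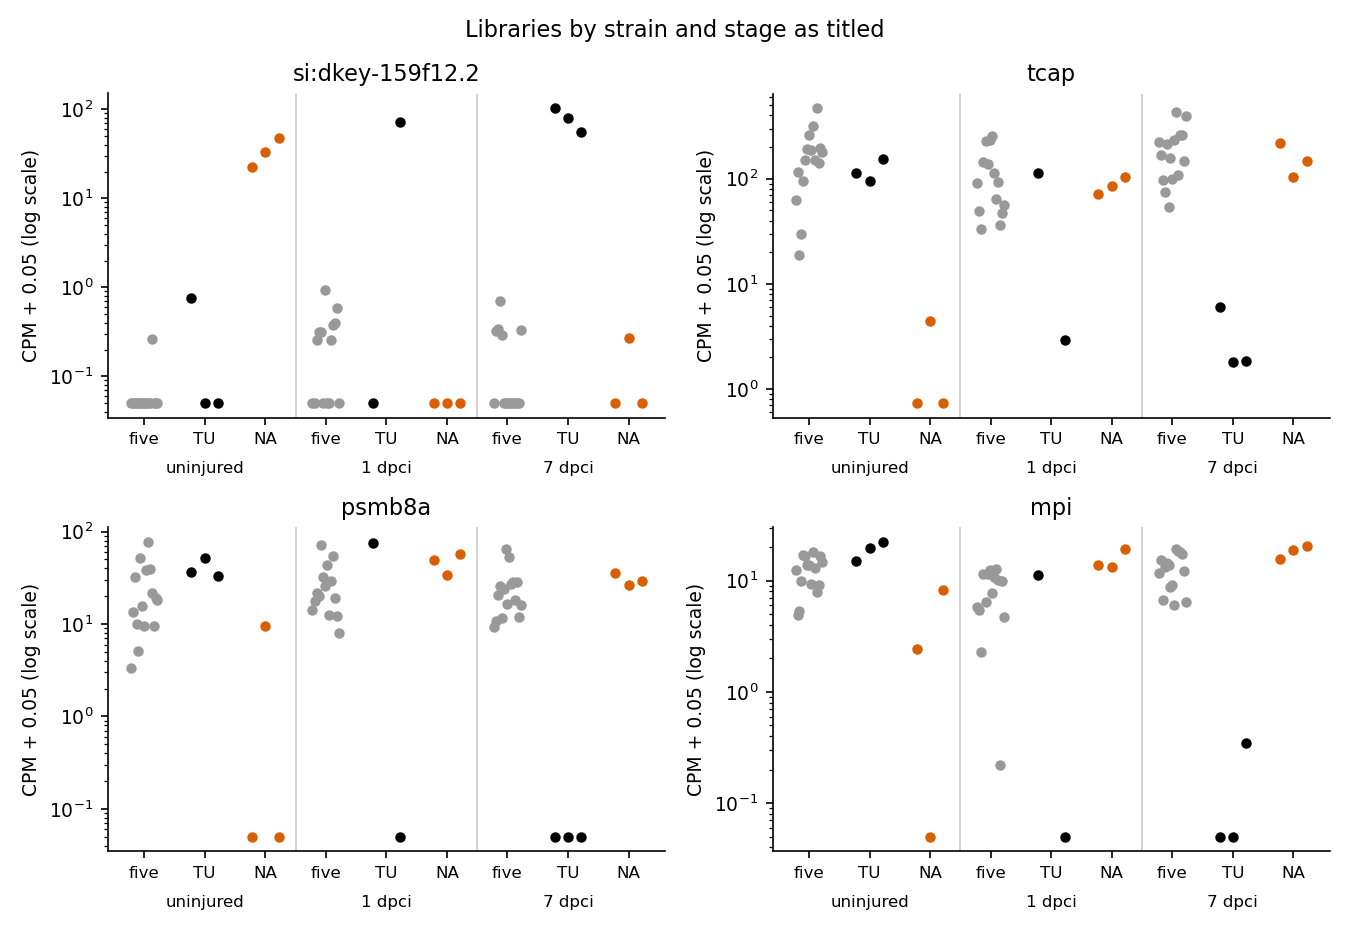
CPM plus 0.05 (log scale) of si:dkey-159f12.2, tcap, psmb8a and mpi in single libraries, by stage and by the strain in the title. In si:dkey-159f12.2, TU at 7 dpci (55.2 to 103 CPM), TU fish 54 at 1 dpci (71.9 CPM) and the libraries titled uninjured NA (22.6 to 47.8 CPM) stand above the rest; grey points are the 5 strains, black TU and orange NA.

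The difference between the stages was tested as an interaction, TU minus the 5 strains at 7 dpci less the same at 1 dpci. 49 genes (0.29%) were past the threshold, 35 lower (0.207%) and 14 higher (0.0829%). Without TU fish 48 at 1 dpci 1 gene was left, and without fish 54 there were 115. Left out 1 at a time, the TU fish at 7 dpci gave 14 to 18. For nr4a1 both TU fish at 1 dpci were at the low end of the other strains (1.87 to 15.6 CPM), and all 3 at 7 dpci were above theirs (interaction 4.21 on the log2 scale, SE 0.78, adjusted p = 0.00447 by edgeR). For klf6a the interaction was 1.71 (SE 0.33, adjusted p = 0.00591). Without fish 48 neither was past the threshold, with 4.03 (adjusted p = 0.176) for nr4a1 and 1.62 (adjusted p = 0.183) for klf6a. Without TU fish 49 the adjusted p of klf6a was 0.0514.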

How the data were processed

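Libraries of mRNA 3′ ends (QuantSeq FWD kit) were prepared by the authors from single ventricles. Per the labels, reads were processed with bcl2fastq 2.20.0, Trim Galore 0.6.4 and STAR 2.7.6a against GRCz11. The authors deposited counts per gene for 32520 genes, without normalization, and log2 normalized values, used here for 1 check of overlap between fish. Reads that match several copies, and sequence that differs between strains, can move a count.

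Genes reaching 1 CPM in any library entered the quasi-likelihood test of edgeR 4.0.16 (R 4.3.3). TMM factors, trended dispersion and fits used all 61 libraries with 21 group means and thus a common estimate of the spread, and p-values were adjusted by Benjamini-Hochberg over all 16890 genes tested. The contrast was the TU mean minus the average of the 5 strain means on the log2 scale, so a strain at 0 weighs strongly. Libraries were taken as single fish, and p-values rest on the spread between fish within all 21 groups. For a gene that differs between TU fish 48 and 54 at 1 dpci, this spread includes that difference. psmb8a had 74.4 CPM in fish 48 and 0 CPM in fish 54. In a fit of the 7 dpci libraries alone, 430 of the 452 genes that could be tested kept their call. Depth was 3012597 to 4377435 counts per library compared, which sets the floor of 3 counts over a group. Intervals are exact 95% binomial intervals.

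Named genes were the 10 largest changes in each direction without overlap of fish, with a gene name and a mean of at least 5 CPM in the higher group, the 3 largest of any name, up to 3 in each direction of each of 43 lists, the 5 largest differences in CPM, and mdh1ab and mdh1aa. The other genes past the threshold against every strain, genes in runs along chromosomes or near psmb8a, jund, klf2a, klf6a, ier2b, tnnt2a, myh7l, gata5 and gata6 were named after their values were seen. Members and lists were chosen with earlier results of these data known. Alternatives were DESeq2 1.42.0, RLE factors, limma 3.58.1 (voom), 1 RUVg factor, other filters and thresholds, fewer libraries or strains, and each fish left out. The scripts were tested on simulated data, and Python 3.11.15, pandas 2.3.3 and scipy 1.17.1 were used for summaries.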

Additional observations from a re-analysis of the deposited data

Results flagged for a closer look

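In the test of the difference between 7 dpci and 1 dpci, 49 genes were past the threshold in TU relative to the 5 strains. The 2 TU fish at 1 dpci include fish 48, which had r of -0.0034 with TU and 0.43 with NA at 7 dpci. Its strain title is in doubt, and the part of that in these values was not tested. Among the genes named by rule, the fitted change was -10.06 on the log2 scale for psmb8a, -8.20 for psmb12, -6.19 for mpi, -5.44 for tapbp.1, -5.15 for cfap57, -5.08 for tcap and -3.80 for hsd17b8. Fitted values of genes at 0 counts depend on the prior count and are no bounds. Without TU fish 48 at 1 dpci 1 gene was past the threshold, none of these 7 among them, and the fitted changes of these 7 lay between -1.75 for hsd17b8 and 1.73 for tapbp.1.

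The change was also negative for ctsk (-2.27) and the small heat shock gene hspb1 (-1.36), and positive for the immediate early gene nr4a1 (4.21). Without fish 48 these were -1.13, -0.65 and 4.03, none past the threshold. hspb1 had 748 CPM in fish 48 and 331 CPM in fish 54 at 1 dpci. nr4a1 had 1.61 and 2.07 CPM in the same fish. Groups of 3 fish are too small for a test of single outlying samples.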

How the results depend on the processing

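The number of genes higher in TU (325), lower in TU (132) and past the threshold against each strain (17) varied with the settings. DESeq2 gave 204 lower genes, 29 against each strain and 128 in the interaction test. limma-voom gave 201 and 39 for the first 2 of these, and a fit of the 7 dpci libraries alone 34 against each strain. With 1 RUVg factor there were 166 higher and 80 lower genes, 131 at 1 dpci, and 51.6% with the same sign in the libraries titled uninjured TU. 195 of the 457 calls were kept in that fit. Those of arntl1b, gpx3, thrsp and pfkmb, kept with each fish left out, were lost there. Also lost there were those of nppa, casq2, c6, ctsk, cxcl12a, rrm1, psmb12, pdk2b, col1a1a, serpinh1a, aldh1a2 and mpeg1.1. The same held for c1qc, cpt1ab, acaa2, gpx4a, slc25a55b, anxa2a, znf1047 and NC_002333.17. With no filter there were 285 lower genes, 64 against each strain, 648 at 1 dpci and 260 in the interaction test. The libraries titled uninjured TU and NA then had 549 and 573. At 1.5-fold and an adjusted p below 0.1 the counts were 594 higher, 294 lower, 33 against each strain, 686 at 1 dpci, 560 and 712 uninjured, and 94 between stages. Without TU fish 49 and SAT fish 38 they were 198, 58 and 8. Against the mean of the other 6 strains, 73.2% had the same sign at 1 dpci and 39.4% in the libraries titled uninjured TU.

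With each fish left out in turn, the counts ranged from 193 to 343 higher, 49 to 134 lower, 8 to 18 against each strain and 1 to 115 between stages. They ranged from 142 (without TU fish 54) to 432 at 1 dpci, from 154 to 301 in the libraries titled uninjured TU and from 168 to 337 in those titled uninjured NA, where leaving out 1 TU library gave at most 186 and 1 NA library at most 183. Of 67 named genes, 36 kept direction and side of the threshold under every alternative, 37 with each fish out and 32 under both. The log2 fold change of anxa6 reversed to -0.011 when TL was left out, a strain in which it is near 0.

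Title numbers of the uninjured libraries are shared between strains, and nothing in the labels says that a number marks a shared litter or day. With the number as a replicate block, 226 genes were past the threshold in the libraries titled uninjured NA, and the count for those titled uninjured TU stayed within 1.5 times. The fish at 7 dpci share no numbers, so no block could be fitted there. The fit of uninjured libraries without a block and the overlap of fish in the deposited values (100 higher and 68 lower genes) were added after the data were seen. Genes under about 5 CPM, 160 of the 457, rest on few counts.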
